A study of Mus musculus with 36 samples.

Results

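The clustered protocadherin genes were described in an allelic series of Chd8 mouse mutants. They were chosen by symbol: every gene in the deposited tables whose name begins with Pcdha, Pcdhb or Pcdhg was a member, which gave 58 of 46603 genes. All lie on chromosome 18. In GRCm38, the 14 alpha genes span positions 36930184 to 37187661, the 22 beta genes 37264938 to 37524479 and the 22 gamma genes 37661793 to 37841873. The alpha cluster holds 12 alternate genes and the C-type genes Pcdhac1 and Pcdhac2. The gamma cluster holds 12 A-type genes, 7 B-type genes and the C-type genes Pcdhgc3, Pcdhgc4 and Pcdhgc5.

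Clustered protocadherins are cell-surface cadherins that bind the same isoform on a neighbouring cell, and they serve neurite self-avoidance, axon tiling and the survival of some neurons. Each gene has its own promoter and a large variable exon that encodes the extracellular part. In the alpha and gamma clusters this exon is spliced to constant exons that all genes of the cluster share, while beta genes lack constant exons. A single neuron uses only some of the alternate genes, chosen promoter by promoter with the help of CTCF and cohesin, whereas C-type genes are less subject to that choice.

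RNA-seq was carried out on 18 libraries of C57Bl/6J embryonic forebrain tissue labelled as cortex, 3 per group. The study asked how gene expression responds to graded loss of Chd8, which encodes a chromatin remodeller linked to autism. At E12.5, neocortex from 1 embryo per library was taken from Chd8+/+, heterozygous Chd8+/-, mild hypomorph Chd8neo/neo and severe hypomorph Chd8neo/- embryos. At E10.5, telencephalic vesicles of 2 embryos were pooled per library from conditional knockouts (cKO) and controls (Ctrl). The neo allele carries a cassette in an intron that lowers normal Chd8 splicing, and Chd8neo/- embryos carry it over a null allele. In cKO embryos Sox1-Cre, which is active in early neural progenitors, deletes a loxP-flanked exon of Chd8, so tissue outside that lineage retains the gene. The Ctrl libraries are labelled as a combination of Chd8f/f and Chd8f/+ embryos, and the labels do not say which library held which.

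The libraries held 38774591 to 61051667 assigned counts at E12.5 and 49632937 to 68488879 at E10.5. The members together took 7998 to 12464 counts per library at E12.5 (0.0189 to 0.0242% of a library) and 3642 to 6781 at E10.5 (0.00701 to 0.00990%). Chd8 itself read 236 to 240.4 CPM (counts per 1000000 of the TMM-scaled library size) in Chd8+/+ libraries and was lower in every mutant group, with log2 fold changes of -0.51 in Chd8+/-, -0.18 in Chd8neo/neo, -0.67 in Chd8neo/- and -0.50 in cKO (all past an adjusted p of 0.05 in edgeR's quasi-likelihood test). It was higher in Chd8neo/neo than in Chd8+/- by 0.33 (adjusted p = 0.00897), against the order of the group names. The count covers all exons of the gene and does not tell normally spliced transcripts from those that run into the cassette. Emx1, which marks the dorsal telencephalon, averaged 50.9 CPM in Chd8+/+ and 29.4 CPM in Ctrl. The 8 ventral telencephalon markers summed to 798 to 830 CPM in the Chd8+/+ libraries and to 29.7 to 56.2 CPM in Ctrl. A single gene beside a sum of 8 does not give the proportion of dorsal to ventral tissue. Summed CPM of 16 neuronal markers was 4345 to 5152 in Chd8+/+, 4512 to 5215 in Chd8+/-, 3571 to 4224 in Chd8neo/neo, 3969 to 4456 in Chd8neo/-, 265 to 481 in Ctrl and 309.6 to 418 in cKO. In such bulk tissue, fewer cells of a type and less RNA per cell cannot be told apart.

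The counts describe mainly the variable exons. In the E12.5 table a fragment that overlapped the exons of several genes was left unassigned, and the constant exons of 59, 89 and 2712 bases are shared by all 14 alpha genes, as are those of 59, 89 and 1971 bases by all 22 gamma genes. A pair with 1 read in a variable exon may still be assigned, and how many were cannot be seen from the counts. The counting command of the E10.5 table is not given in the sources used here. Reads of near-identical neighbouring variable exons may also be lost or split, and strand was not used, so antisense transcripts cannot be told apart from a member. Pcdhga10 had no exon base free of other annotated genes, and its values say nothing about its level.

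In Chd8+/+ neocortex the gamma cluster dominated and Pcdhgc3 led it. Summed over members, the gamma cluster read 174, 180.6 and 182 CPM in the 3 Chd8+/+ libraries, the beta cluster 32.7, 42.5 and 39.6 CPM and the alpha cluster 13.9, 20.01 and 15.99 CPM. Gamma genes thus held 76.6% ± 2.32 (SD, n = 3) of all member reads. Pcdhgc3 alone held 24.3% ± 1.51 of the gamma reads, and Pcdhac2 held 44.1% ± 3.18 of the alpha reads (both SD, n = 3).

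Levels between genes were compared as CPM per kilobase of exon that no other gene overlaps, for members with at least 1000 such bases. On this scale Pcdhgc3 stood at 23.9 ± 1.60 in Chd8+/+ neocortex (SD, n = 3), above every other member. The highest A-type genes were Pcdhga11 at 8.18 ± 0.547, Pcdhga4 at 3.72 ± 0.487 and Pcdhga3 at 3.56 ± 0.0922 CPM per kilobase. The highest B-type genes were Pcdhgb6 at 6.58 ± 0.319, Pcdhgb7 at 4.75 ± 0.320 and Pcdhgb2 at 2.36 ± 0.166 CPM per kilobase. Within both families the leading gene stood clear of the next one by more than the spread of either. The bases used were 1256 for Pcdhga11, 1570 for Pcdhga4, 1823 for Pcdhgb7 and 1821 for Pcdhgc3. They were 2565 for Pcdhgb6 and 2601 for Pcdhga3. A read pair only partly within these bases may still be counted, and the SD between libraries does not measure what that does to the ranking.

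Beta and alternate alpha genes were lower, with medians under those of the other subgroups. The highest beta genes on the per-kilobase scale were Pcdhb17 at 1.05 ± 0.207, Pcdhb7 at 0.954 ± 0.109 and Pcdhb20 at 0.768 ± 0.0810 CPM per kilobase. The highest alternate alpha genes, Pcdha12 at 0.642 ± 0.182, Pcdha3 at 0.503 ± 0.133 and Pcdha9 at 0.443 ± 0.0890 CPM per kilobase, lay close together, neighbours in this order differing by less than the SD of the higher gene. The C-type genes did not form a uniform class, since Pcdhgc4 stood at 2.46 ± 0.101, Pcdhac2 at 2.41 ± 0.414, Pcdhac1 at 0.507 ± 0.0611 and Pcdhgc5 at 0.503 ± 0.0602 CPM per kilobase. The medians over genes were 2.61 for A-type gamma, 2.41 for C-type, 1.58 for B-type gamma, 0.401 for alternate alpha and 0.380 for beta genes.

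**Figure D1:**
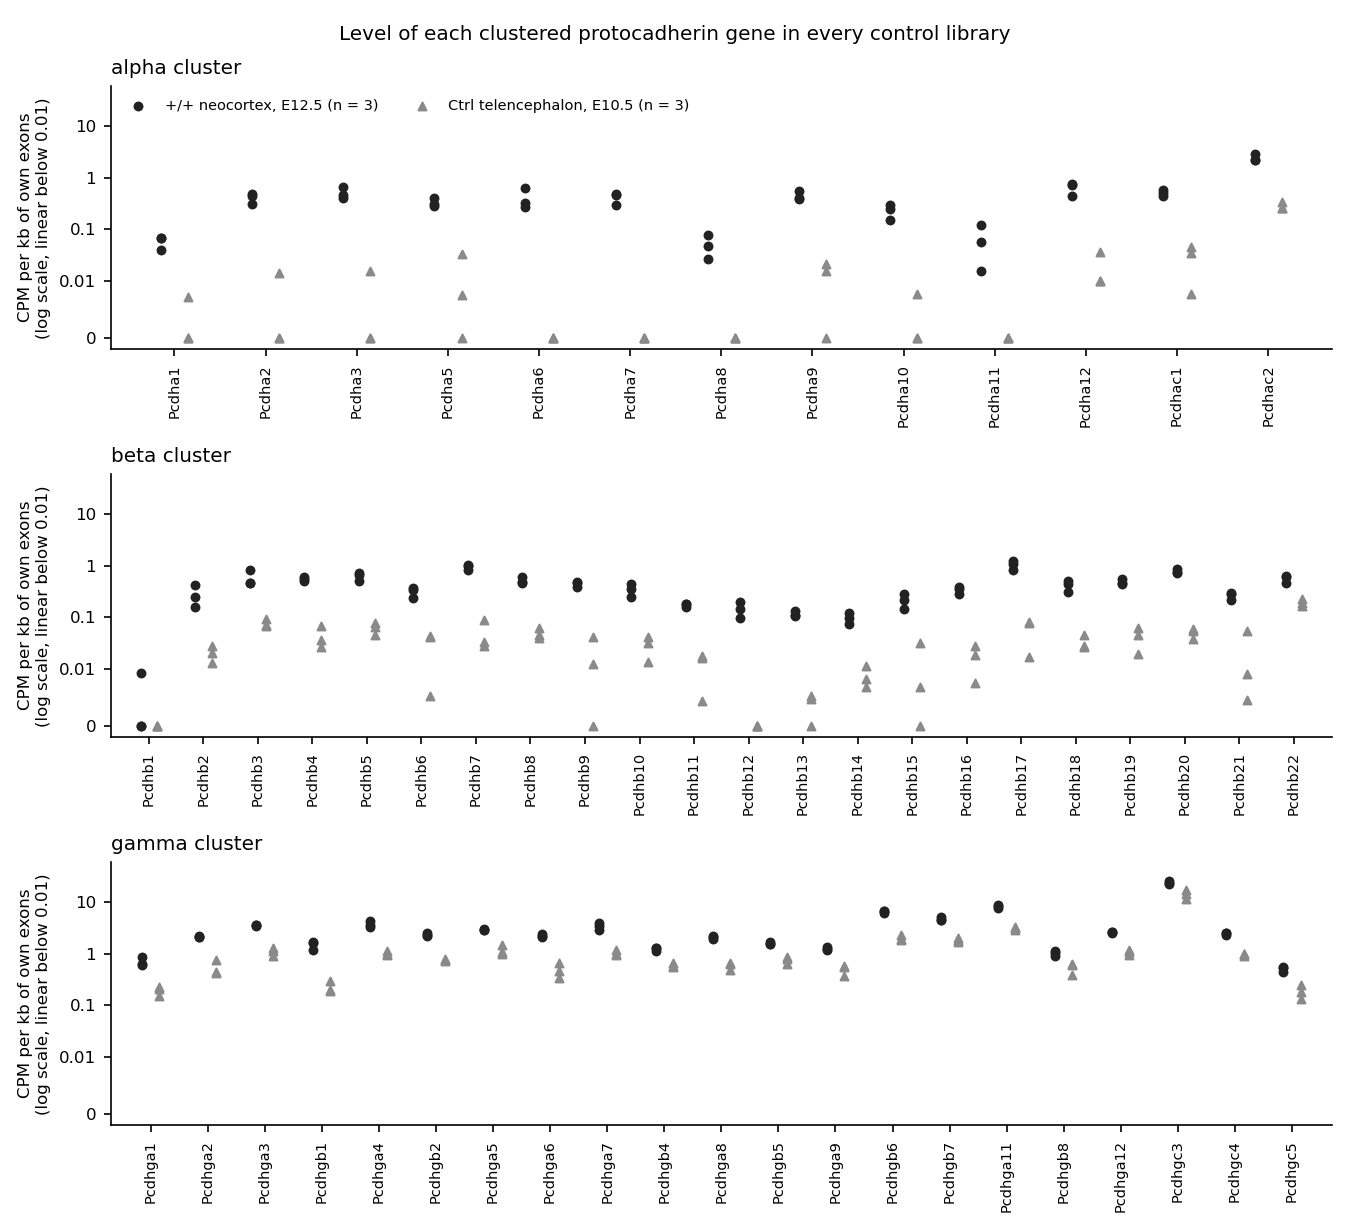
Level of each member in CPM per kilobase of exon that no other gene overlaps, on an axis that is logarithmic above 0.01 and linear below it, with 1 point for each of the 3 Chd8+/+ (E12.5) and 3 Ctrl (E10.5) libraries. Pcdhgc3 was the highest member in both groups (means of 23.9 and 14.2) and the median over genes in Ctrl was 1.03 for A-type gamma, 0.0290 for beta and 0.00256 for alternate alpha genes.

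Detection was most complete for gamma genes and least complete for alpha genes. At E12.5, 51 members passed the filter on low counts (10 alpha, 20 beta and 21 gamma genes), and Pcdha1, Pcdha4, Pcdha8, Pcdha11, Pcdhb1, Pcdhb12 and Pcdhga10 did not. At E10.5, 32 members passed: Pcdhac2, 10 beta genes and 21 gamma genes. In Ctrl, 6 members had no count in any library and 12 had at most 3 counts over the group, of which 9 were alpha genes, 3 beta genes and none gamma genes. In Chd8+/+ no member lacked counts in every library and 1 had at most 3 counts.

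The comparison of Chd8+/+ neocortex at E12.5 with Ctrl telencephalon at E10.5 asked how the cluster stood at the 2 stages sampled. Every member tested in the fits of both stages was higher at E12.5, 32 of 32, with a median log2 difference of 1.77 and a range of 0.75 to 4.23. Of all 17703 genes tested in both fits, 33.2% were higher at E12.5 and the median log2 difference was -0.04. Stage, dissection, pooling, alleles and sequencing run differed together between these groups and cannot be told apart. The other 19 members passed the filter of the fit over all 18 libraries only through their E12.5 levels, so that the count over it, 51 of 51 against 34.0% of all genes, says nothing more.

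The clusters differed widely in the size of this difference. Summed CPM was 15.6 times higher in Chd8+/+ than in Ctrl for the alpha cluster, 10.1 times for the beta cluster and 2.45 times for the gamma cluster. Among members tested in both fits, the median log2 difference was 1.45 for 21 gamma genes and 3.55 for 10 beta genes. In Ctrl the alpha cluster read 1.11, 1.04 and 1.05 CPM, the beta cluster 4.03, 2.55 and 4.76 CPM and the gamma cluster 64.8, 76.2 and 77.7 CPM. No Ctrl library reached the lowest Chd8+/+ library in any of the clusters. Gamma genes accordingly held 93.7% ± 1.55 of all member reads in Ctrl (SD, n = 3).

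**Figure D2:**
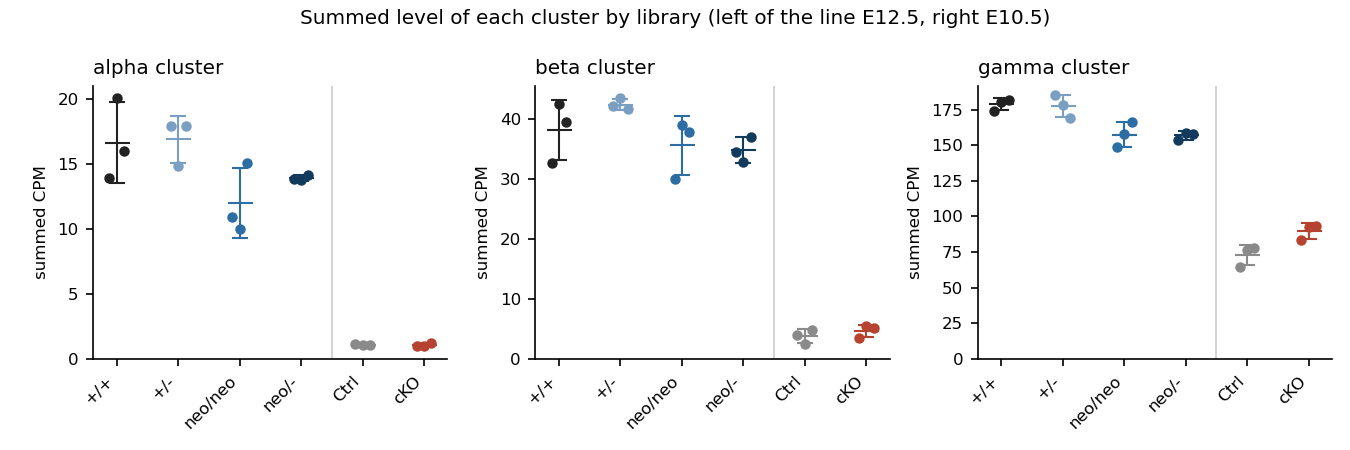
Summed CPM of the alpha, beta and gamma members in each of the 18 libraries, by group, with points for libraries and bars for the mean and SD of 3 libraries. The E10.5 groups lie below all E12.5 groups in each cluster, by 15.6, 10.1 and 2.45 times between the means of Ctrl and Chd8+/+ for alpha, beta and gamma genes.

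Alternate alpha genes were close to undetected at E10.5. Summed over the 12 genes, they averaged 8.02 CPM in Chd8+/+ and 0.142 CPM in Ctrl. Pcdha6 had 26, 49 and 28 counts in Chd8+/+ libraries and none in Ctrl, which puts it at least 39.1-fold higher in Chd8+/+ when Ctrl is set at 3 counts over the group. Pcdha7, with 32, 41 and 48 counts against none, was at least 45.9-fold higher on the same floor. Pcdha3 had 172 counts in Chd8+/+ against 2 in Ctrl, a ratio of 98.0 (95% counting interval 26.7 to 815), and Pcdha2 had 143 against 2, a ratio of 81.4 (22.1 to 679). These floors and intervals cover counting error only.

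Of the alpha genes only Pcdhac2 passed the E10.5 filter. It read 6.58, 8.75 and 6.57 CPM in Chd8+/+ and 0.787, 1.00 and 0.764 CPM in Ctrl, a log2 difference of 3.10 (SE 0.1998, adjusted p = 5.9e-11, edgeR). The ranges did not overlap, yet it made up 79.9% ± 14.2 of alpha reads in Ctrl against 44.1% ± 3.18 in Chd8+/+ (SD, n = 3), because the alternate alpha genes were lower still. Pcdhac1 was low in Ctrl, with 12 counts over the 3 libraries against 181 in Chd8+/+.

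Among beta genes, Pcdhb20, Pcdhb7 and Pcdhb8 had the smallest adjusted p-values. Pcdhb7 read 2.91, 3.49 and 3.63 CPM in Chd8+/+ and 0.115, 0.0980 and 0.302 CPM in Ctrl, a log2 difference of 4.23 (adjusted p = 1.08e-11, edgeR) that was the largest among the 32 members. Pcdhb20 read 2.51, 3.06 and 2.63 CPM against 0.211, 0.137 and 0.195 CPM, a log2 difference of 3.89 (adjusted p = 2.08e-12), and Pcdhb8 differed by 3.41. Pcdhb22, the beta gene nearest the gamma cluster, whose annotation overlaps the end of Pcdhb21, kept a higher level in Ctrl. It read 2.89, 3.70 and 3.80 CPM in Chd8+/+ and 1.36, 1.02 and 1.14 CPM in Ctrl, a log2 difference of 1.56, and its share of beta reads was 9.04% ± 0.488 in Chd8+/+ and 32.6% ± 8.13 in Ctrl (SD, n = 3).

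Pcdhgc3 had the smallest difference of the 32 members. It read 42.8, 41.0 and 46.7 CPM in Chd8+/+ against 20.9, 31.3 and 25.6 CPM in Ctrl, a log2 difference of 0.75 (SE 0.102, adjusted p = 2.94e-06, edgeR) without overlap between groups. Pcdhgc4 and Pcdhgc5 differed by 1.37 and 1.45. Pcdhgb6 read 15.98, 17.1 and 17.6 CPM in Chd8+/+ against 4.78, 4.86 and 5.84 CPM in Ctrl, a log2 difference of 1.71 (adjusted p = 1.63e-12), and Pcdhgb7 and Pcdhga7 differed by 1.37 and 1.72. Across the 18 A-type and B-type genes with a value, the log2 difference fell with position towards the constant exons (Spearman's rho -0.63, Pearson's r -0.62), which is a description over neighbouring genes of the same libraries. All 16 neuronal markers were also higher in Chd8+/+, by a median log2 difference of 3.26, and 1 of them was at 0 in Ctrl and cKO. Their part in the member differences was not tested.

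**Figure D3:**
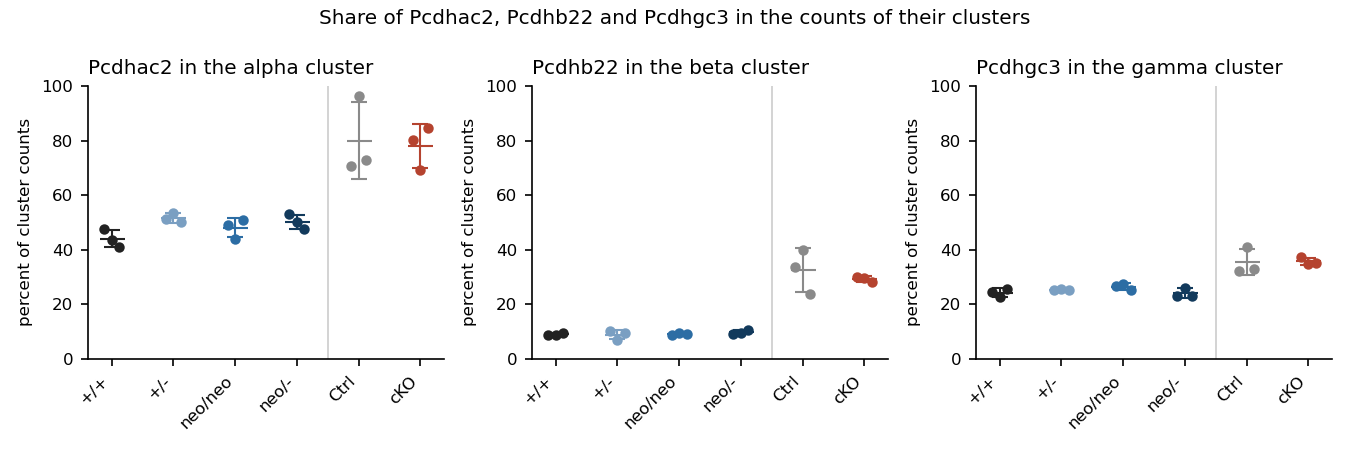
Share of its cluster's reads held by Pcdhac2, Pcdhb22 and Pcdhgc3 in each library, in percent, by group, with the mean and SD of 3 libraries. Each share was higher in the E10.5 groups than in the E12.5 groups: 79.9% against 44.1% for Pcdhac2, 32.6% against 9.04% for Pcdhb22 and 35.4% against 24.3% for Pcdhgc3 between the means of Ctrl and Chd8+/+.

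In Chd8+/- neocortex no member was called against Chd8+/+. Of all genes tested, 0.0213% passed, which is 4 genes. Unadjusted p was under 0.05 for 3 of 51 members in edgeR, near the 6.33% of all genes, and for 2 in DESeq2, which also called none. The 3 were Pcdhb7 and Pcdhb21, with log2 differences of 0.32 and 0.39 (adjusted p = 0.747 and 0.771), and Pcdhgb5 with -0.27 (adjusted p = 0.726). The median log2 difference was 0.02 over all tested members and 0.00 over all genes. Among beta genes 15 of 20 had a positive difference, with a median of 0.18. The C-type genes lay between -0.12 for Pcdhgc5 and 0.25 for Pcdhac2.

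In Chd8neo/neo neocortex 4 members were lower than in Chd8+/+ and none higher. Of all genes 4.45% were called lower, so 4 of 51 is near the background. The 4 were the alternate alpha gene Pcdha3 and the A-type gamma genes Pcdhga5, Pcdhga9 and Pcdhga11. Pcdha3 (chromosome 18, 36946105 to 37187657) read 1.14, 1.61 and 0.982 CPM in Chd8+/+ and 0.356, 0.730 and 0.756 CPM in Chd8neo/neo, a log2 difference of -0.98 (SE 0.270, adjusted p = 0.0401, edgeR). Pcdhga11 (37755731 to 37841873), the highest A-type gene per kilobase, read 9.54, 10.4 and 10.9 CPM against 7.92, 7.73 and 8.53 CPM, a log2 difference of -0.35 (SE 0.0987, adjusted p = 0.0439). In both genes every mutant library lay below every Chd8+/+ library.

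Pcdhga5 (37694380 to 37841873) read 7.19, 7.80 and 7.38 CPM in Chd8+/+ and 4.88, 6.48 and 6.05 CPM in Chd8neo/neo, a log2 difference of -0.35 (SE 0.102, adjusted p = 0.0467, edgeR). Pcdhga9 (37736936 to 37841870) read 4.08, 4.34 and 4.63 CPM against 3.18, 3.05 and 3.38 CPM, a log2 difference of -0.44 (SE 0.129, adjusted p = 0.0497). Neither overlapped between the groups, and both adjusted p-values sit just inside the threshold. These calls rested on single libraries: 0 members were called without Chd8+/+ replicate 2, Chd8neo/neo replicate 1, Chd8neo/neo replicate 2 or Chd8neo/- replicate 1, 1 without Chd8+/+ replicate 3, Chd8+/- replicate 3 or Chd8neo/- replicate 3, 2 without Chd8neo/- replicate 2 and 11 without Chd8neo/neo replicate 3. With only the 2 groups compared the count was 0, and with Xist above 100 CPM as a covariate, which stands for embryo sex, it was 1. Xist was above 100 CPM in Chd8+/+ replicate 3, Chd8+/- replicate 1, Chd8neo/neo replicate 1 and Chd8neo/neo replicate 2. No Chd8neo/- library was above it, so genotype and sex were not balanced.

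Below the threshold, 44 of 51 tested members had a negative difference in Chd8neo/neo, with a median log2 value of -0.22 against 0.01 over all genes. The median was -0.65 for alternate alpha genes, -0.27 for A-type and -0.17 for B-type gamma genes and -0.06 for beta genes. An unadjusted p under 0.05 was found for 16 of 51 members, against 25.2% of all genes. The summed alternate alpha genes averaged 8.02 CPM in Chd8+/+ and 4.93 CPM in Chd8neo/neo, a change of -38.6%, and the summed gamma cluster read 149, 158 and 166 CPM in Chd8neo/neo, a change of -12.01% on average. Neither sum overlapped between the groups. Pcdhac2 read 5.36, 4.39 and 7.64 CPM, overlapping Chd8+/+, at a log2 difference of -0.33 (adjusted p = 0.252, edgeR). The other C-type genes differed by -0.06 for both Pcdhac1 and Pcdhgc3, by -0.28 for Pcdhgc4 (adjusted p = 0.0951) and by -0.41 for Pcdhgc5 (adjusted p = 0.169).

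Neuronal markers moved alongside. Of 16, 4 were lower in Chd8neo/neo (Dcx, Elavl4, Map2 and Snap25) and none higher, with a median log2 difference of -0.30. Pax6 and Sox2, 2 of 10 radial glia markers, were higher, but that list's sum overlapped (2939 to 3378 CPM against 2927 to 3158 in Chd8+/+). Sums lay below Chd8+/+ without overlap for Cajal-Retzius (183 to 239 against 244 to 285 CPM) and microglia markers (16.8 to 20.9 against 22.6 to 23.9). The same held for endothelial (187 to 206 against 211 to 214) and ventral telencephalon markers (675.9 to 797.2 against 797.8 to 829.5). The sums of the remaining marker lists overlapped. The part of these cell type markers in the member differences was not tested.

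In Chd8neo/- neocortex 4 members were lower and none higher, against 5.99% of all genes called lower, again near the background. They were Pcdhga8, Pcdhgb5, Pcdhga9 and Pcdhga11. Pcdhga8 (37725706 to 37841873) read 4.52, 4.05 and 4.38 CPM in Chd8+/+ and 2.69, 2.65 and 3.69 CPM in Chd8neo/-, a log2 difference of -0.52 (SE 0.133, adjusted p = 0.0218, edgeR). Pcdhga11 read 8.21, 7.18 and 8.09 CPM in Chd8neo/-, a log2 difference of -0.39 (SE 0.099, adjusted p = 0.0208). Every Chd8neo/- library lay below every Chd8+/+ library in both genes.

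Pcdhgb5 (37731009 to 37841873) read 7.19, 7.66 and 7.02 CPM in Chd8+/+ and 4.84, 6.38 and 5.71 CPM in Chd8neo/-, a log2 difference of -0.36 (SE 0.105, adjusted p = 0.0372, edgeR). Pcdhga9 read 2.85, 3.42 and 3.31 CPM in Chd8neo/-, a log2 difference of -0.44 (SE 0.129, adjusted p = 0.0396). Both were without overlap. The counts fell to 0 members without Chd8+/+ replicate 3, to 1 without Chd8+/+ replicate 2 or Chd8neo/- replicate 1 and to 2 without Chd8neo/- replicate 2 or replicate 3, and rose to 7 with only the 2 groups compared.

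Across the tested members, 43 of 51 had a negative difference in Chd8neo/-, with a median of -0.19 against 0.00 over all genes, and 14 had an unadjusted p under 0.05, against 26.5% of all genes. The medians were -0.46 for alternate alpha, -0.14 for beta and -0.20 for gamma genes. Summed alternate alpha genes averaged 5.39 CPM, a change of -32.8%, and the gamma cluster read 153, 159 and 158 CPM, a change of -12.4%, both without overlap. Among C-type genes the differences were -0.29 for Pcdhgc4 (adjusted p = 0.0717, edgeR), -0.20 for Pcdhgc3 (adjusted p = 0.0702), -0.10 for Pcdhgc5, -0.06 for Pcdhac2 and 0.23 for Pcdhac1. Of the neuronal markers, Dcx and Map2 were lower, and the median over 16 was -0.14. Of the 8 ventral telencephalon markers Gad1 was lower by -0.34 and 7 had a negative difference. Summed CPM of the 7 erythroid markers was 4205 to 6475 in Chd8neo/- against 3155 to 3818 in Chd8+/+, without overlap. The 7 did not move together: 5 had a positive and 2 a negative difference, down to -0.84. Only Hba-x was called, and it was higher. The part of these markers in the member differences was not tested.

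The mutant groups at E12.5 share the Chd8+/+ libraries, so their values stand side by side without a count of what they have in common. Pcdha3 had log2 differences of -0.98 in Chd8neo/neo and -0.71 in Chd8neo/- (adjusted p = 0.0998, edgeR), Pcdhga5 -0.35 and -0.21 (adjusted p = 0.195), Pcdhga8 -0.40 (adjusted p = 0.0770) and -0.52, and Pcdhgb5 -0.32 (adjusted p = 0.0700) and -0.36. The direct comparison of Chd8neo/- with Chd8neo/neo called no member, against 0.0159% of all genes (3 genes). No member had an unadjusted p under 0.05 in edgeR or in DESeq2, and the median log2 difference was 0.02. The C-type genes lay between -0.14 for Pcdhgc3 and 0.31 for Pcdhgc5 there.

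Chd8neo/neo against Chd8+/- also called no member in edgeR, against 5.28% of all genes called in either direction. Unadjusted p was under 0.05 for 13 of 51 members, against 23.2% of all genes, and 49 of 51 had a negative difference, with a median of -0.24. DESeq2 called Pcdhac2 and Pcdhgc4. Pcdhac2 read 9.15, 7.94 and 8.95 CPM in Chd8+/- against 5.36, 4.39 and 7.64 CPM in Chd8neo/neo, without overlap, a log2 difference of -0.58 (adjusted p = 0.0641, edgeR). Pcdhgc4 differed by -0.32 (adjusted p = 0.076), Pcdhgc5 and Pcdhac1 both by -0.29 and Pcdhgc3 by -0.11. Without Chd8neo/neo replicate 3, the library with the highest Pcdhac2 of its group, 8 members were called, and without Chd8+/+ replicate 2, 1 was. Of the neuronal markers 3 of 16 were lower and the median was -0.40, while the radial glia marker Sox2 was higher by 0.26 (adjusted p = 0.0457) and 6 of 10 radial glia markers had an unadjusted p under 0.05. The part of these markers was not tested.

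In cKO telencephalon 1 of 32 tested members, Pcdhgb4, was higher than in Ctrl and none lower, against 5.75% of all genes called higher, so the count is below the background. Pcdhgb4 (37720369 to 37841870) read 2.09, 1.98 and 2.36 CPM in Ctrl and 2.60, 3.29 and 3.31 CPM in cKO, a log2 difference of 0.52 (SE 0.149, adjusted p = 0.0464, edgeR) without overlap. Pcdhgb6, at 0.39 (adjusted p = 0.0510), and Pcdhga7, at 0.46 (adjusted p = 0.0596), were just outside the threshold. The count became 0 without Ctrl replicate 1, cKO replicate 2 or cKO replicate 3 and 2 without Ctrl replicate 2 (Pcdhgc3 and Pcdhgc5), and without Ctrl replicate 3 the gene called was Pcdhgb6 instead.

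All 21 tested gamma genes had a positive difference in cKO, with a median log2 value of 0.27, and 8 members, all gamma genes, had an unadjusted p under 0.05, against 27.4% of all genes. The gamma cluster read 64.8, 76.2 and 77.7 CPM in Ctrl and 83.1, 92.8 and 93.3 CPM in cKO, 23.1% higher on average and without overlap. Among beta genes 8 of 10 were positive with a median of 0.35, but the summed beta cluster overlapped, at 4.03, 2.55 and 4.76 CPM in Ctrl against 3.45, 5.45 and 5.08 CPM in cKO. The alpha cluster averaged 1.07 CPM in Ctrl and 1.09 CPM in cKO. Pcdhac2 differed by 0.02 (adjusted p = 0.972, edgeR), Pcdhgc3 by 0.31 (adjusted p = 0.167), Pcdhgc4 by 0.21 (adjusted p = 0.283) and Pcdhgc5 by 0.59 (adjusted p = 0.121). Pcdhac1, which was not tested at E10.5, had 6, 1 and 5 counts in Ctrl and 3, 8 and 4 in cKO. Pcdhgc3 read 30.9, 32.3 and 32.9 CPM in cKO, which overlaps Ctrl through Ctrl replicate 2 at 31.3 CPM.

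Of 14 neuronal markers tested at E10.5, Snap25 was lower in cKO and the median log2 difference was 0.00. The mesenchymal markers Col1a2 and Col3a1 were higher in cKO (summed CPM of the 6 meninges and mesenchyme markers 757 to 941 against 609 to 694 in Ctrl), as were Cx3cr1, 1 of 4 microglia markers whose log2 differences ran from -0.28 to 0.48, and Cdh5, 1 of 5 endothelial markers. Of the 8 ventral telencephalon markers 7 had a negative difference, with a median of -0.63, and Gsx2 was lower by -1.43 (adjusted p = 0.0491, edgeR). The part of these markers in the member differences was not tested.

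**Figure D4:**
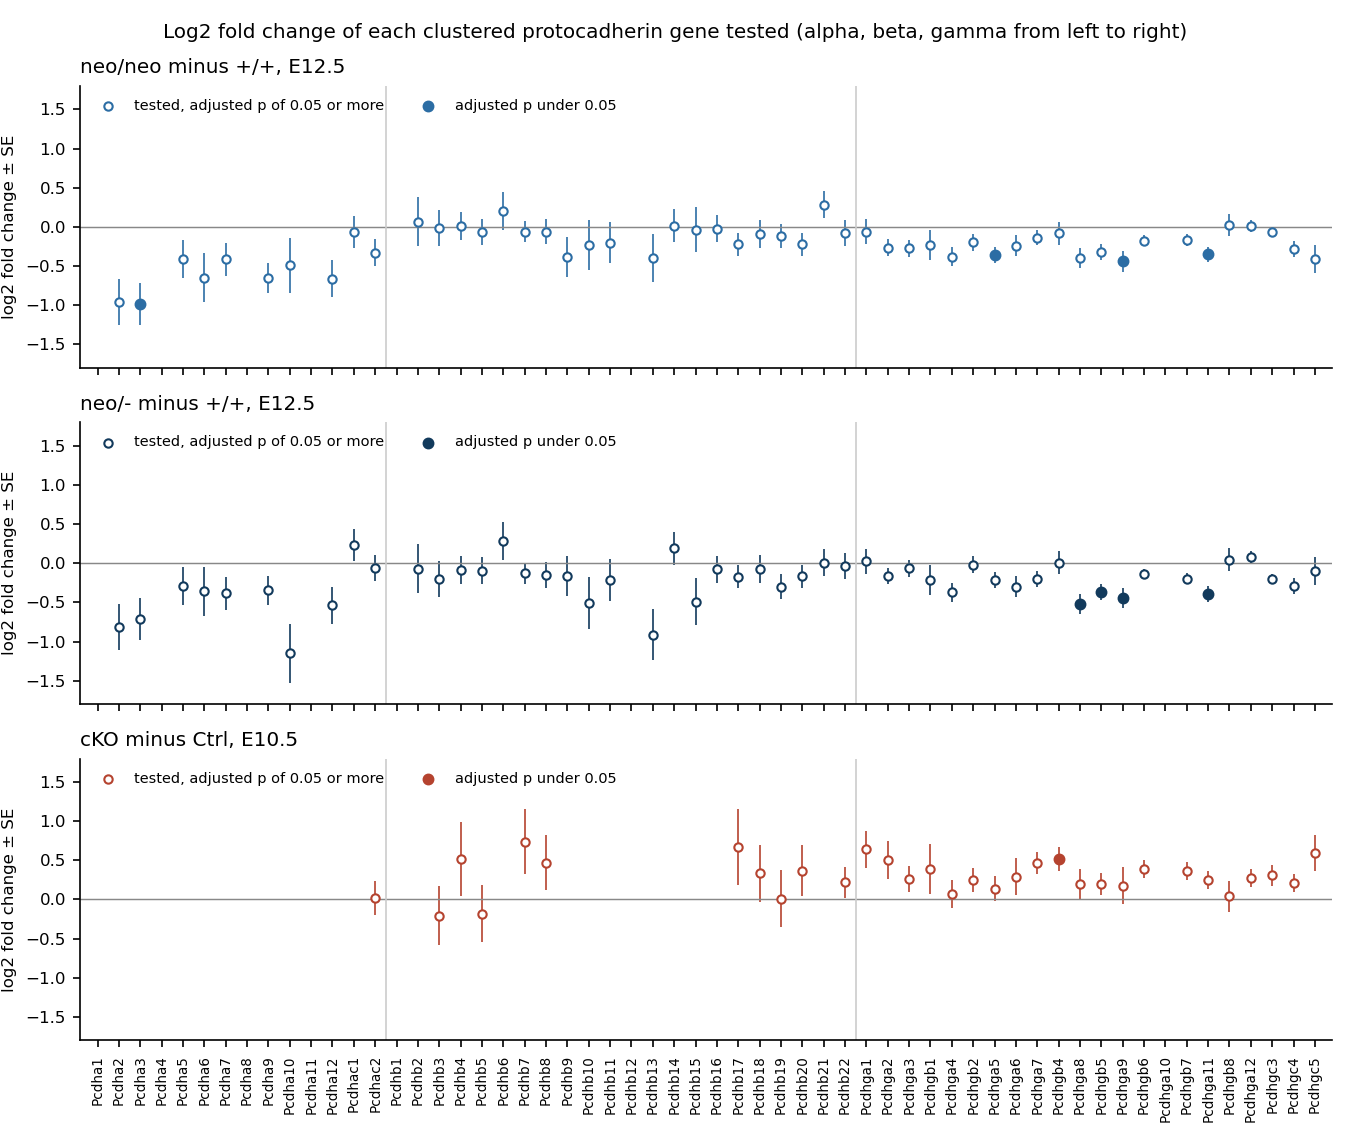
Log2 difference of each tested member with its SE in Chd8neo/neo and Chd8neo/- against Chd8+/+ (E12.5) and in cKO against Ctrl (E10.5), with filled points for an adjusted p under 0.05 in edgeR. The hypomorph points lie mostly below 0 (44 and 43 of 51), the cKO points mostly above it (30 of 32), and the filled points number 4, 4 and 1.

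Whether the Chd8 effect itself differed between the conditional knockout and the hypomorphs was tested as an interaction in one fit over 18 libraries. Relative to the Chd8neo/neo effect, 6 of 21 gamma genes had a higher cKO effect, against 3.64% of all genes called higher, and none a lower one. Relative to the Chd8neo/- effect, 6 of 21 gamma genes and Pcdha10 had a higher cKO effect, against 3.90% of all genes. The 2 contrasts share the cKO, Ctrl and Chd8+/+ libraries and are not separate evidence. They also compare stage, dissection and allele together, which cannot be told apart. The beta and alternate alpha genes passed the filter of this fit largely through E12.5, and apart from Pcdha10 none of them was called. Cell type markers were called in the same contrasts. Relative to Chd8neo/neo the cKO effect was higher on Cx3cr1 (by 0.91) and Csf1r (by 0.66) of 4 microglia markers. It was also higher on Cdh5 (by 0.35) of 5 endothelial markers, of which 4 had a positive and 1 a negative difference. It was lower on Pax6 (by -0.47) and Hes5 (by -0.51) of 10 radial glia markers and Gsx2 (by -1.56) of 8 ventral telencephalon markers. Insm1 was lower (by -0.46), 1 of 5 intermediate progenitor markers, of which 2 had a positive and 3 a negative difference. The other markers of these lists were not called. Relative to Chd8neo/- the cKO effect was higher on Cx3cr1 (by 0.71) and lower on Pax6 (by -0.40) and Gsx2 (by -1.48). Of the 16 neuronal markers none was called in either contrast, and 1 in each had an unadjusted p under 0.05. The part of these markers in the member differences was not tested.

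The gamma genes called were Pcdhga7, Pcdhga11, Pcdhgb6, Pcdhgb7 and Pcdhgc4 in both contrasts, Pcdhgc5 in the contrast with Chd8neo/neo and Pcdhgc3 in that with Chd8neo/-. Pcdhgb6, the highest B-type gene, read 14.2, 14.8 and 15.8 CPM in Chd8neo/neo and 15.1, 15.5 and 15.3 CPM in Chd8neo/-, below the 15.98, 17.1 and 17.6 CPM of Chd8+/+. In cKO it read 6.27, 7.07 and 6.97 CPM, above the 4.78, 4.86 and 5.84 CPM of Ctrl. Neither difference overlapped between its groups, and neither passed the threshold on its own, but the difference between the effects did, at 0.57 (SE 0.119, adjusted p = 0.00837, edgeR) for Chd8neo/neo and 0.53 (SE 0.119, adjusted p = 0.0126) for Chd8neo/-.

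Pcdhgb7 showed the same pattern. It read 8.29, 8.35 and 9.33 CPM in Chd8+/+, 7.49, 7.74 and 7.86 CPM in Chd8neo/neo and 7.58, 7.76 and 7.31 CPM in Chd8neo/-, and 3.13, 3.29 and 3.64 CPM in Ctrl against 4.09, 4.46 and 4.38 CPM in cKO. The effects differed by 0.53 (adjusted p = 0.0126, edgeR) and 0.56 (adjusted p = 0.00988). For Pcdhga11, which read 3.55, 4.06 and 4.01 CPM in Ctrl and 4.36, 4.82 and 4.61 CPM in cKO, they differed by 0.60 (adjusted p = 0.0174) and 0.64 (adjusted p = 0.0126). Pcdhgb6 and Pcdhgb7 were called in both contrasts with any 1 of the 18 libraries left out.

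Pcdhga7 differed less at E12.5, where it read 8.80, 9.86 and 7.51 CPM in Chd8+/+ and overlapped 7.94, 8.27 and 7.58 CPM in Chd8neo/neo, and more at E10.5, with 2.496, 2.39 and 3.05 CPM in Ctrl and 3.23, 3.92 and 3.79 CPM in cKO. Its effects differed by 0.60 (adjusted p = 0.0335, edgeR) and 0.66 (adjusted p = 0.0215). Among C-type genes, Pcdhgc4 was called in both contrasts at 0.48 (adjusted p = 0.0468) and 0.50 (adjusted p = 0.0422). Pcdhgc5 differed by 1.00 (adjusted p = 0.0423) and 0.69 (adjusted p = 0.160), Pcdhgc3 by 0.37 (adjusted p = 0.132) and 0.51 (adjusted p = 0.0414), Pcdhac2 by 0.35 and 0.08 and Pcdhac1 by 0.12 and -0.18. The count against Chd8neo/neo was 2 without cKO replicate 2 and 3 without Chd8+/+ replicate 3, Chd8neo/neo replicate 1, Chd8neo/neo replicate 2, Ctrl replicate 1 or cKO replicate 3. The count against Chd8neo/- was 3 without Chd8neo/- replicate 1, cKO replicate 2 or cKO replicate 3 and 4 without Chd8+/+ replicate 3 or Ctrl replicate 1.

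Pcdha10 was called from few counts. It had 1, 0 and 0 counts in Ctrl and 4, 3 and 5 in cKO, a ratio of 9.97 (95% counting interval 1.48 to 426), and 19, 31 and 29 counts in Chd8+/+ against 8, 11 and 19 in Chd8neo/-. It did not pass the E10.5 filter, and its fitted difference depends on the prior count.

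**Figure D5:**
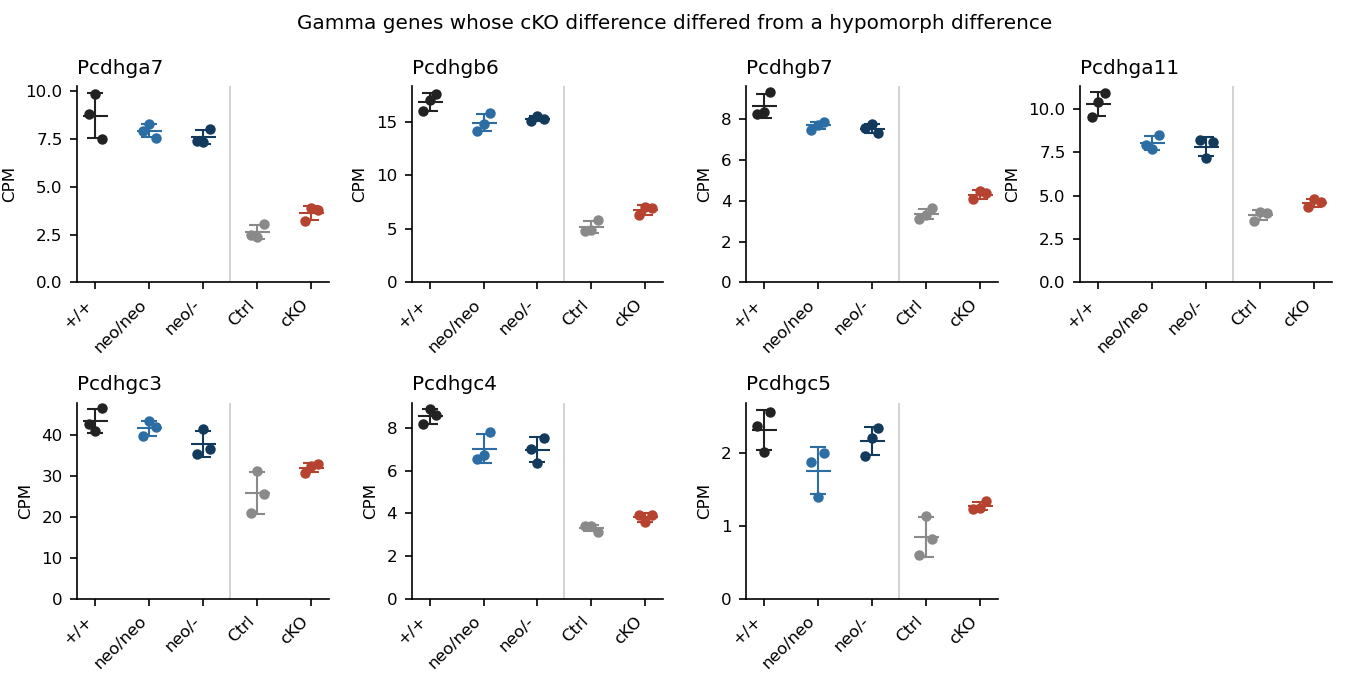
CPM of Pcdhga7, Pcdhgb6, Pcdhgb7, Pcdhga11, Pcdhgc3, Pcdhgc4 and Pcdhgc5 in each Chd8+/+, Chd8neo/neo, Chd8neo/-, Ctrl and cKO library, with points for libraries and bars for the mean and SD of 3. Pcdhgb6 shows the pattern called by the interaction test, with hypomorph libraries at 14.2 to 15.8 below Chd8+/+ at 15.98 to 17.6, and cKO libraries at 6.27 to 7.07 above Ctrl at 4.78 to 5.84.

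Genes that act on the clusters were read from a list of 19 regulators, namely CTCF, cohesin and its loaders and releasers, DNA methyltransferases and silencers. Dnmt3a, a de novo DNA methyltransferase, was lower in Chd8neo/neo by -0.35 (adjusted p = 0.00164, edgeR), in Chd8neo/- by -0.56 (adjusted p = 1.63e-05) and in cKO by -0.26 (adjusted p = 0.0205), all on the log2 scale. Zfp143, a looping factor, was higher in Chd8neo/- by 0.19. No other regulator was called in these comparisons, and none in Chd8+/-. Between Chd8+/+ and Ctrl, 6 of 19 were higher at E12.5, near the 34.0% of all genes, and 8 lower, among them Dnmt3b by -1.68, Rest, a repressor of neuronal genes, by -0.71 and Dnmt3a by 0.83.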

How the data were processed

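The members and all gene lists were chosen with earlier results of these data known. Named with values were the C-type genes in every comparison, the 3 highest members per other subgroup in Chd8+/+, every called member (above 12 calls, the 6 smallest adjusted p and the largest rise and fall) and members called in an interaction test. Pcdha2, Pcdha6, Pcdhb21, Pcdhb22 and genes just outside a threshold were picked with their values in view.

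The authors deposited raw counts per gene and sequencing run, with no normalization, and the exon length of each gene, used here for the length trend. Per the submitters' processing notes and the study's methods, reads were trimmed with Trim Galore 0.4.1, checked with FastQC 0.11.2, aligned to GRCm38 with TopHat2 2.1.0 on Bowtie and counted with featureCounts 1.5.0. The E12.5 file header shows paired counting without strand, multi-mapping reads or reads on several genes. The E10.5 counting command is not given in the sources used here. Of 46603 gene IDs, 46005 matched a symbol and 598 did not. One ID that the symbol table also calls Pcdha11 was named Pcdha10.

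The 2 runs of each library were summed. edgeR 4.0.16 (R 4.3.3) was run with filterByExpr, TMM factors and the robust two-sided quasi-likelihood test, separately for the 12 E12.5 libraries (18810 genes) and the 6 E10.5 libraries (18435 genes), and over all 18 libraries (19565 genes) for the stage comparison and interactions. p-values were adjusted by Benjamini-Hochberg over all genes tested, at 0.05. An SE is the log2 difference divided by the square root of F. CPM values use the TMM factors of the 18-library fit. Counting intervals are exact 95% binomial intervals, and floors are 3 counts. Scripts were tested on simulated data. Alternatives were DESeq2 1.42.0, other scalings and filters, single runs, a length trend, an Xist covariate, the compared groups alone, a replicate block and each library left out. Same-numbered libraries deviated together only for Chd8neo/neo and Chd8+/- (correlations 0.108, 0.195 and 0.199), where the replicate block called 0 members, as did the block with the length trend removed. Values of some genes of the lists are not reported here.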

Additional observations from a re-analysis of the deposited data

Results flagged for a closer look

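The cKO effect on 6 members differed from the Chd8neo/neo effect in edgeR's interaction test: the log2 difference between the effects was 0.60 for Pcdhga7 (SE 0.163), 0.57 for Pcdhgb6 (SE 0.119), 0.53 for Pcdhgb7 (SE 0.1198), 0.60 for Pcdhga11 (SE 0.144), 0.48 for Pcdhgc4 (SE 0.142) and 1.00 for Pcdhgc5 (SE 0.287). The cKO effect on 7 members differed from the Chd8neo/- effect, by 0.66 for Pcdhga7 (SE 0.163), 0.53 for Pcdhgb6 (SE 0.119), 0.56 for Pcdhgb7 (SE 0.1199), 0.64 for Pcdhga11 (SE 0.144), 0.51 for Pcdhgc3 (SE 0.143), 0.50 for Pcdhgc4 (SE 0.142) and 4.05 for Pcdha10 (SE 1.07). The value for Pcdha10 rests on 1 count in Ctrl and 12 in cKO and moves with the prior count. Both sets of values share the cKO, Ctrl and Chd8+/+ libraries, and stage, dissection and allele cannot be told apart in them.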

How the results depend on the processing

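Counts of called members moved with the processing in every comparison that had near-threshold calls, and the cause was not tested. Against Chd8+/+, the 4 calls in Chd8neo/neo became 0 with a replicate block, with the higher-numbered run alone and with only the 2 groups compared, 1 with the length trend removed or the Xist covariate and 2 with the lower-numbered run alone. The 4 calls in Chd8neo/- became 2 with either run alone or the length trend removed and 7 with only the 2 groups compared. Chd8neo/neo against Chd8+/- went from 0 to 2 in DESeq2 and 1 with the lower-numbered run. The single cKO call became 3 in DESeq2 or without the filter, 2 with a replicate block or the length trend removed and 0 with the lower-numbered run. The interaction with Chd8neo/neo went from 6 to 3 with either run alone, and that with Chd8neo/- from 7 to 4 with the lower-numbered run. Same-numbered libraries deviated together only for Chd8neo/neo against Chd8+/-. Apart from the Chd8neo/neo and cKO counts against their controls given above, the replicate block moved no count by over 1.5 times. With 1 library left out, the counts ranged from 0 to 11 for Chd8neo/neo, 0 to 6 for Chd8neo/-, 0 to 8 for Chd8neo/neo against Chd8+/-, 0 to 2 for cKO, 2 to 8 and 3 to 10 for the interactions with Chd8neo/neo and Chd8neo/- and 51 to 52 for Chd8+/+ against Ctrl, and stayed at 0 for Chd8+/- and for Chd8neo/- against Chd8neo/neo. No direction of a named member called in the main fit reversed. Changes of sign in named members that were not called were not counted. The 54 recomputed cluster sums moved by less than the spread between replicates. At E10.5 depth, a group's total of 3 counts or fewer for 12 members leaves changes in most alternate alpha genes undetectable.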

Other observations

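The 12 non-clustered protocadherins, single genes outside the clusters, were also mostly higher in Chd8+/+ at E12.5 than in Ctrl at E10.5. Of them 11 were higher, against 34.0% of all genes, among them Pcdh15 by 5.79 and Pcdh10 by 3.23 on the log2 scale, and Pcdh18 was lower by -0.68. Pcdh1 was lower in Chd8neo/neo by -0.44 (adjusted p = 0.0152, edgeR) and in Chd8neo/- by -0.36 (adjusted p = 0.0263), and Pcdh10 in Chd8neo/- by -0.25 (adjusted p = 0.0119). Pcdh11x and Pcdh7 were lower in Chd8neo/neo than in Chd8+/- by -0.71 and -0.32. In cKO, Pcdh12, which endothelial cells express, was higher by 0.36. The cKO effect on Pcdh7 lay above the Chd8neo/neo effect by 0.52 and above the Chd8neo/- effect by 0.44.

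Of 16 genes whose proteins signal with or cut protocadherins, none was called in Chd8neo/neo. In Chd8neo/-, Pdcd10 was higher by 0.20 and Abi2, of the WAVE complex, lower by -0.15. Between Chd8+/+ and Ctrl 8 were higher at E12.5, against 34.0% of all genes, and 5 were lower. Among the higher ones were Cyfip2 by 2.08, the kinase Fyn by 1.38 and the receptor Ret by 3.45.

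Among 9 genes between and beside the clusters, Taf7, which lies between the beta and gamma clusters, was higher in Chd8neo/- by 0.29 and Wdr55 by 0.22. Hars was higher in cKO by 0.24 and Hars2 lower by -0.21. Wdr55 and Hars2 were lower in Chd8+/+ than in Ctrl by -0.89 and -0.17, and none of the 9 was called higher, against 34.0% of all genes. The cKO effect on Dnmt3a lay above the Chd8neo/- effect by 0.29.

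Of the other marker lists, all 8 genes of the ventral telencephalon and all 5 of intermediate progenitors were higher in Chd8+/+ than in Ctrl (34.0% of all genes were), as were 6 of 10 radial glia, 3 of 4 Cajal-Retzius, 3 of 5 endothelial, 4 of 7 erythroid, 2 of 6 meninges and mesenchyme and 2 of 4 microglia markers. The radial glia marker Emx2 was lower by -0.34, the Cajal-Retzius marker Lhx5 by -1.36, the mesenchymal Twist1 by -3.98 and the microglial Ptprc by -1.02, and 3 of 4 surface ectoderm markers were lower. Among the mutants, single markers of these lists were called in Chd8neo/neo, where 4.45% of all genes were called lower. Gad1, 1 of 8 ventral telencephalon markers, was lower. Kdr, 1 of 5 endothelial markers, was lower too, and of the 5, 4 had a negative and 1 a positive difference. Gadd45g was higher, 1 of 5 intermediate progenitor markers, which all had a positive difference.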
